A study of Homo sapiens with 12 samples.

Results

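The first week of embryoid body culture was described by setting 1-week embryoid bodies against the stem cells they were made from, across every gene that the arrays detected. The platform was the Illumina HumanWG-6 v3 expression BeadChip, read in 1 colour. The 1-week group (EB_1Wk) held 4 arrays and the stem cell group (ES) held 4, which is 8 of the 12 arrays of the series. A probe was kept when its detection p-value was under 0.01 on at least 4 of the 12 arrays, and 10562 named genes were then tested by their brightest probe.

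All groups came from SNUhES3, 1 established human embryonic stem cell (ESC) line, so that every value describes this line. ESCs grew on mouse STO feeder cells arrested in mitosis, in medium with knockout serum replacement and basic FGF (bFGF). For embryoid bodies (EBs), colonies were detached with type IV collagenase and floated on bacterial dishes for 1 week in the same medium without bFGF, without feeder cells being named. Loss of bFGF, loss of the feeder layer, detachment, aggregation and the week in culture therefore cannot be told apart, and the labels do not describe any removal of feeder cells before RNA extraction. The remaining group, 2-week EBs, was not compared here. Its arrays did enter the probe filter, the normalization, the choice of the brightest probe and the estimate of the spread. The labels do not state whether replicate arrays represent separate cultures, so p-values measure the spread between arrays, which may be technical.

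Human ESCs keep dividing without specialising as long as a network of transcription factors and outside signals, bFGF and activin or NODAL among them, holds them in that state. When colonies float without bFGF they round up into EBs, in which cells leave that state and give rise to derivatives of all germ layers side by side. An EB is a mixture, so a transcript that is lower in it can mean fewer cells that hold it or less RNA per cell, and these cannot be told apart in bulk RNA.

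Levels below are log2 normalized intensities, and a difference is the mean of 1-week EBs minus the mean of ESCs on that scale. A gene was called higher or lower when limma's Benjamini-Hochberg adjusted p was under 0.05 and the difference was at least 1, which is 2-fold. By this rule 643 of the 10562 genes (6.09%) rose and 324 (3.07%) fell, 967 (9.16%) in all, and the median difference of all genes was 0.01. The shares over all genes are the background for every list count below. With the adjusted p alone, 27.1% of genes were higher and 24.8% lower. Ranges of 1-week and ESC arrays were separate for 48.5% of all genes, and they overlapped for 3 of the called ones. Among 2335 kept probes without a single gene symbol, 79 (3.38%) rose and 135 (5.78%) fell. When arrays were scaled to equal medians in place of quantiles, the median of all genes moved to 0.13, and 794 genes rose while 223 fell, so that 78.1% of the calls were rises, against 66.5% with quantiles.

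**Figure D1:**
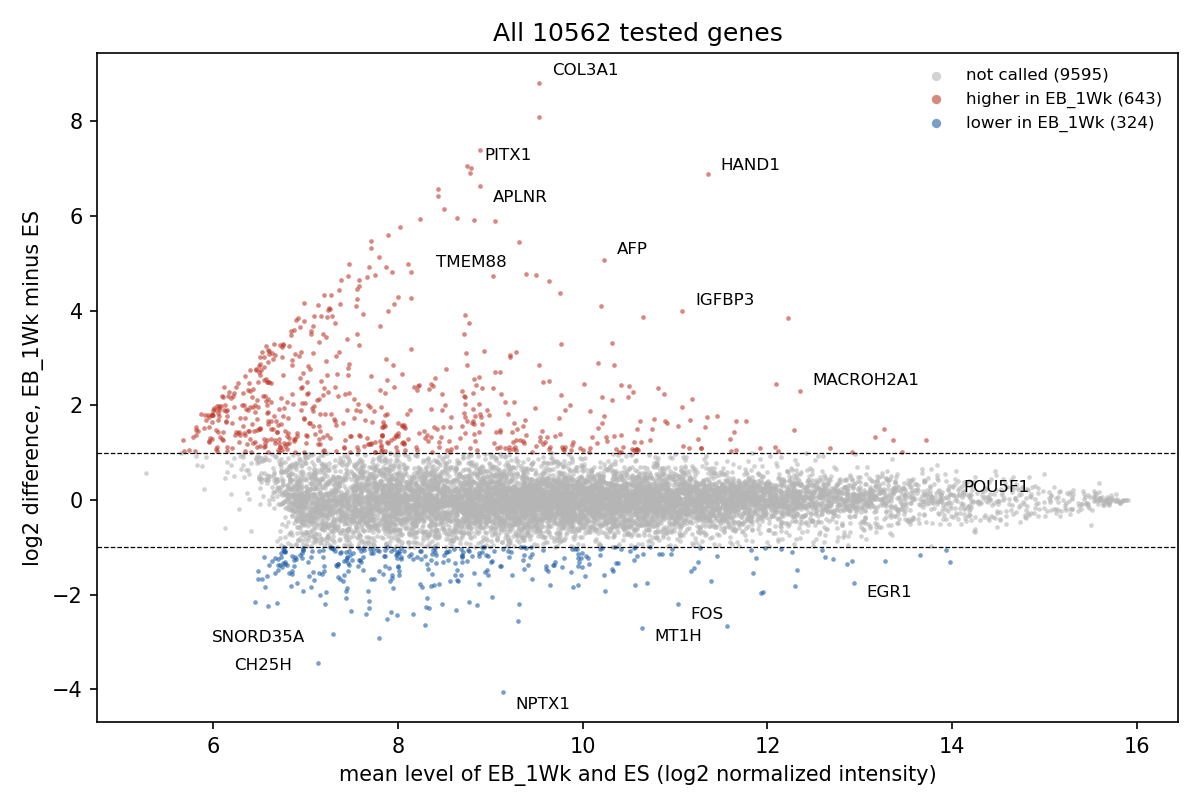
Each point is 1 of the 10562 tested genes, with its mean level over 1-week EBs and ESCs (log2 normalized intensity) on the x axis and the difference, 1-week EBs minus ESCs (log2), on the y axis. Dashed lines mark a difference of 1 in either direction; the rises, 643 genes, reach 8.80 for COL3A1 and the falls, 324 genes, reach -4.06 for NPTX1.

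Arrays 1 and 2 of a group resembled each other more than arrays 3 and 4, and the reverse. Across genes, which are not independent replicates, the correlation was 0.997 to 0.998 within such a pair, 0.992 between the pairs in 1-week EBs and 0.987 between them in ESCs. Levels differed by at least 1 between the pairs for 40 genes in 1-week EBs and for 138 genes in ESCs. All 967 called genes had the same sign in both pairs, and 804 of them passed the 2-fold minimum in both. Detected probes per array numbered 15317 to 15585 in 1-week EBs and 14388 to 14780 in ESCs. Of the called genes, 367 rises and 75 falls concern probes undetected on every array of the dimmer group, and their folds are given as lower bounds ("at least").

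**Figure D2:**
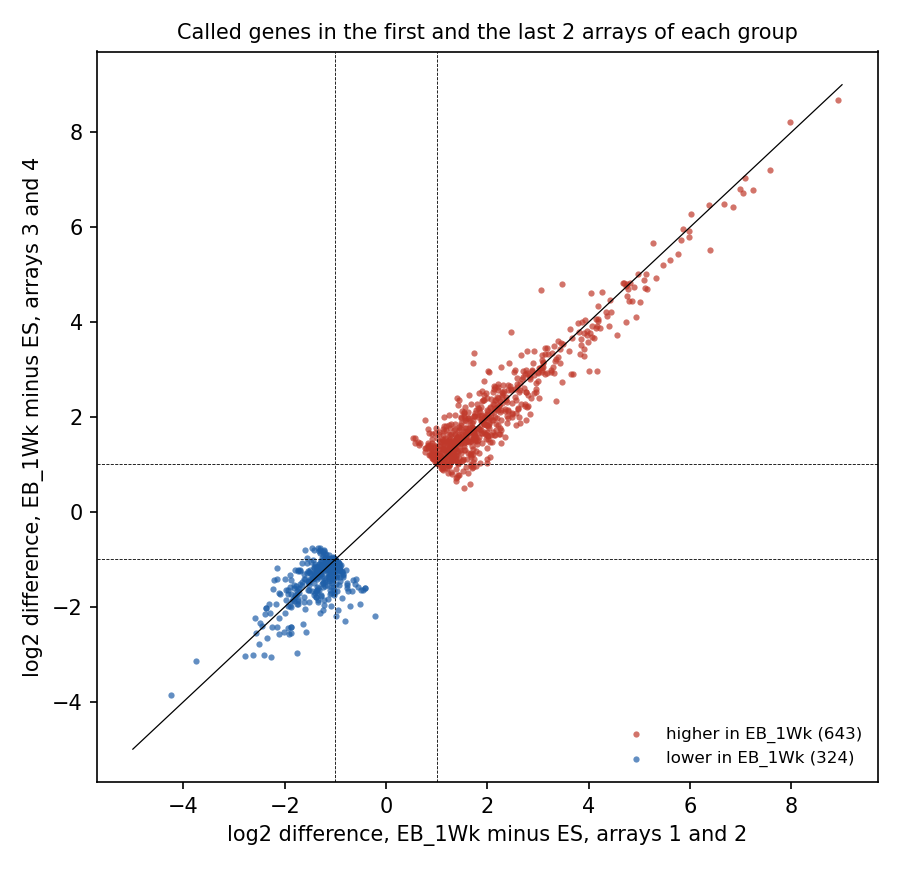
Each point is 1 of the 967 called genes, with its difference (1-week EBs minus ESCs, log2) from arrays 1 and 2 of each group on the x axis and from arrays 3 and 4 on the y axis. Dashed lines mark a difference of 1, the solid line marks equality, and all points lie in the quadrant of their call.

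The core pluripotency factors were still present after 1 week, while small sets of other genes in the pluripotency list had fallen or risen. POU5F1, the transcription factor OCT4, had 14.19, 14.23, 13.64 and 13.70 in 1-week EBs, against 14.15, 14.17, 14.04 and 14.09 in ESCs. Its 1-week arrays lay on both sides of the ESC arrays, and the difference of -0.18 (SE 0.12, limma adjusted p = 0.243) was 0.05 when taken from arrays 1 and 2 alone. NANOG differed by -0.10 (SE 0.10, limma adjusted p = 0.423), or 0.04 with median scaling, and SOX2 by -0.15 (SE 0.09, limma adjusted p = 0.165), and neither was called. Of 46 tested pluripotency genes 6 were called lower and 4 higher, beside 3.07% and 6.09% over all genes. The other 36 were not called, and the median was -0.27. With the authors' deposited series matrix values the counts were 3 lower and 2 higher.

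The 6 that fell were PIPOX, DPPA2, DPPA5, FOXD3, UTF1 and PRDM14. PIPOX, a peroxisomal enzyme that oxidises pipecolic acid and sarcosine, had 7.69, 7.75, 7.70 and 8.001 in 1-week EBs, against 9.46, 9.22, 9.63 and 9.64 in ESCs. The groups did not overlap, and PIPOX fell 3.25-fold (log2 difference -1.70, SE 0.10, limma adjusted p = 7.07e-09). DPPA2, a chromatin-bound pluripotency factor, had 7.67, 7.80, 7.52 and 7.39 in 1-week EBs, against 9.17, 9.10, 9.15 and 9.18 in ESCs, and fell 2.94-fold. DPPA5, an RNA-binding protein of pluripotent cells, fell by 1.27 on the log2 scale, but by 0.99 without background correction, where it is no longer called. The 4 that rose were NODAL, which is described below, SFRP2, GDF3 and LEFTY1. SFRP2, a secreted protein that binds WNT ligands, had 11.11, 11.10, 11.24 and 11.21 in 1-week EBs, against 9.97, 9.99, 9.90 and 9.90 in ESCs, a rise of 2.34-fold. GDF3 rose 2.16-fold. LEFTY1 differed by 1.01, but it was detected on 2 of 4 ESC arrays, so the size of its rise is uncertain.

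The steepest measured fall of all was that of NPTX1, a secreted pentraxin known from synapses. NPTX1 had 6.99, 7.06, 7.26 and 7.14 in 1-week EBs, against 11.47, 11.09, 11.11 and 11.01 in ESCs. Every 1-week array was below every ESC array, and NPTX1 fell 16.7-fold (log2 difference -4.06, SE 0.10, limma adjusted p = 8.91e-13). CH25H, the enzyme that makes 25-hydroxycholesterol, was undetected on all 4 1-week arrays and had 9.15, 9.05, 8.56 and 8.67 in ESCs, a fall of at least 4.11-fold. It was the only called member among 24 tested genes of cholesterol synthesis and its control.

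Other steep falls were those of single genes with roles in cell shape, signalling or cilia. The cilia list, described below, held 2 falls and 2 rises among 48 tested genes, beside 3.07% and 6.09% over all genes. RND1, a small GTPase that loosens actin fibres, had 7.21, 7.25, 7.26 and 7.05 in 1-week EBs, against 9.32, 9.44, 9.56 and 9.61 in ESCs, a fall of 4.90-fold. CTNND1, the p120 catenin that holds cadherins at the cell surface, fell 4.64-fold (log2 difference -2.22, SE 0.27, limma adjusted p = 1.13e-05), and its other kept probe gave -1.87. CTNND1 had 7.42, 7.65, 7.92 and 8.03 in 1-week EBs, against 9.35, 9.46, 10.44 and 10.63 in ESCs, so that the second ESC pair held more than the first and all lay above the 1-week arrays. CREB5, a factor of the bZIP family that binds cAMP response elements, fell 6.26-fold by its brightest probe, while its other kept probe differed by 0.11. ODAD3, which docks outer dynein arms in motile cilia, fell 4.83-fold, and GARIN1B fell at least 5.41-fold. TMEM107, a ciliary membrane protein whose gene contains SNORD118 in the RefSeq table, had 7.65, 7.43, 7.36 and 7.40 in 1-week EBs, against 9.79, 9.78, 9.71 and 9.89 in ESCs, a fall of 5.04-fold. CCL26, a chemokine that attracts eosinophils, was undetected on all 1-week arrays and fell at least 4.12-fold.

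The largest measured rises, read against a group in which the gene was detected on at least 3 arrays, joined mesoderm factors with matrix and carrier proteins. HAND1 and AFP led them, with differences of 6.89 and 5.07. TMEM88, a membrane protein that restrains WNT signalling, had 11.80, 11.96, 11.90 and 11.85 in 1-week EBs, against 7.14, 7.24, 7.21 and 6.90 in ESCs, a rise of 27.0-fold. COLEC12, a scavenger receptor with a collagen-like stem, had 12.11, 12.16, 11.75 and 11.74 in 1-week EBs, against 7.29, 7.40, 7.22 and 7.37 in ESCs, a rise of 24.5-fold. The groups did not overlap for either gene. MSX1, a homeobox factor, rose 20.6-fold, ACTC1, the cardiac form of alpha-actin, 14.3-fold, and WLS, which carries WNT proteins to the cell surface, 9.90-fold.

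The matrix gene COL3A1 rose at least 115-fold and the matrix proteoglycan gene LUM at least 89.9-fold. DCN, another matrix proteoglycan, had a bound of 45.2-fold by its brightest probe, its other probes differing by 1.42 to 4.19 on the log2 scale. FGB, the fibrinogen beta chain, had a bound of 35.3-fold. Among rises from below background, PITX1, APLNR and RGS4 stand outside the matrix and plasma protein genes. PITX1, a homeobox factor of the hindlimb and pituitary, had 12.48, 12.43, 12.18 and 12.10 in 1-week EBs and was undetected on all 4 ESC arrays, a rise of at least 37.0-fold. APLNR, the apelin receptor of early mesoderm and vessels, had 12.25, 12.11, 12.15 and 12.33 in 1-week EBs and rose at least 34.8-fold. RGS4, which switches off G protein signals, rose at least 25.8-fold. SLN, sarcolipin of the muscle calcium store, rose at least 36.4-fold, and HAPLN1, which links hyaluronan to proteoglycans, at least 30.9-fold. For such genes the filter kept the probe through EB arrays alone, so that a higher level in EBs was largely fixed in advance.

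Immediate early genes, whose transcripts appear within minutes of a stimulus, held many falls. Of 32 tested members 16 fell, 1 rose and 15 were not called, beside 3.07% lower and 6.09% higher over all genes, and their median difference was -1.06, or -0.92 with undetected members at their bound. The mean level over the list was 9.74, 9.76, 9.74 and 9.75 in 1-week EBs, against 10.82, 10.80, 10.66 and 10.66 in ESCs. With the series matrix values, or without background correction, 14 fell and none rose.

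The AP-1 subunits and the EGR factors led this list. FOS, a subunit of the AP-1 transcription factor, had 9.92, 9.96, 9.94 and 9.87 in 1-week EBs, against 12.29, 12.16, 12.03 and 12.04 in ESCs. FOSB, its close relative, had 8.12, 8.19, 7.89 and 7.88 in 1-week EBs, against 10.58, 10.84, 10.46 and 10.40 in ESCs. All 1-week arrays lay far below all ESC arrays in both cases, and FOS fell 4.62-fold and FOSB 5.86-fold (log2 differences -2.21, SE 0.08, and -2.55, SE 0.11, limma adjusted p = 2.72e-11 and 1.55e-10). EGR3, a zinc finger factor induced by growth factors, fell 5.39-fold by its brightest probe, which was detected on 1 of 4 1-week arrays, while its other kept probe differed by -0.41. JUN and EGR1, named after their values were seen, fell by 1.96 and 1.75 on the log2 scale.

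The fall took in feedback regulators of the same response. ZFP36, which binds AU-rich mRNAs and speeds their decay, had 9.74, 9.70, 9.60 and 9.63 in 1-week EBs, against 11.65, 11.67, 11.19 and 11.31 in ESCs, a fall of 3.45-fold. DUSP1, a phosphatase that inactivates MAP kinases, had 10.36, 10.36, 10.54 and 10.44 in 1-week EBs, against 12.16, 12.15, 11.66 and 11.75 in ESCs, a fall of 2.84-fold. DUSP2, another such phosphatase, fell at least 2.98-fold, and GADD45B, a stress sensor, 2.83-fold. KLF2, a flow-responsive factor of endothelium, was the member that rose, by 1.24 on the log2 scale, or by 0.91 with the series matrix values, where it is not called.

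Promoter sequences of 3 members that fell together are shown so that their response elements can be read beside these values. They are the 250 bases upstream of the transcript start in RefSeq, assembly GRCh38.p14. Capitals mark TGACG on either strand, the core of the cAMP response element, and the CArG box, the site of serum response factor, on either strand. The motifs share no base in these sequences.
FOS, chr14:75278578-75278827, plus strand: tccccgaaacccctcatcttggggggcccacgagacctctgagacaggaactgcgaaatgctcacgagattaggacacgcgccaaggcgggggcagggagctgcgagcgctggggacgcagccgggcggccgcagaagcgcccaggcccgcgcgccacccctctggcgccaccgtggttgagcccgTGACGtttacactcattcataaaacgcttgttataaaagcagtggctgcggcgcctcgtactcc
FOSB, chr19:45467746-45467995, plus strand: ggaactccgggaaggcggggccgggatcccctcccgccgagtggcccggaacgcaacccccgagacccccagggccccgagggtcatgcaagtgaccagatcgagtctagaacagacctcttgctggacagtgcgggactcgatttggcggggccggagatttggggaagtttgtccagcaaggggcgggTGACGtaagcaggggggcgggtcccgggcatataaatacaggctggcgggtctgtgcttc
EGR1, chr5:138465229-138465478, plus strand: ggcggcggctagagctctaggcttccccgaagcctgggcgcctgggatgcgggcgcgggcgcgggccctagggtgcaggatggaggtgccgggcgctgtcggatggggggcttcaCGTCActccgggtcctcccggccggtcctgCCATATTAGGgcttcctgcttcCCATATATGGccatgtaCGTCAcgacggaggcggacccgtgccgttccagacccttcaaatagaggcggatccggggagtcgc
The FOS and FOSB stretches each hold 1 TGACG, and that of EGR1 holds 2, with 2 CArG boxes. Over 27305 RefSeq promoters cut to the same 250 bases, 21.7% hold TGACG and 1.14% a CArG box. Of the 13 fallen members with a promoter in that table, 7 hold TGACG and 1 a CArG box, and of the 11 that were not called, also 7 and 1. A match is a run of letters and no measured site. Bases further upstream were not searched, so a stretch without a match can have the element outside it.

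Metallothioneins, small cysteine-rich proteins that bind zinc and copper, moved in opposite directions. Of 7 tested genes in the list, which includes their regulator MTF1, 4 fell and 1 rose (median -1.07). MT1H had 9.53, 9.56, 8.95 and 9.12 in 1-week EBs, against 11.98, 11.94, 11.96 and 12.12 in ESCs, and fell 6.55-fold (log2 difference -2.71, SE 0.12, limma adjusted p = 2.88e-10). MT1G had 10.59, 10.58, 9.94 and 9.81 in 1-week EBs, against 12.84, 12.87, 12.91 and 12.98 in ESCs, and fell 6.36-fold. In both genes arrays 3 and 4 of the 1-week group were lower than arrays 1 and 2, and all were below the ESC arrays. MT1F fell 2.19-fold, and MT1X fell 2.09-fold, or by 0.98 on the log2 scale without the fourth 1-week array.

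MT2A rose while its relatives fell. It had 11.21, 11.24, 10.998 and 10.98 in 1-week EBs, against 9.98, 10.06, 9.99 and 10.13 in ESCs, with no overlap (log2 difference 1.06, SE 0.12, limma adjusted p = 4.49e-06). From arrays 3 and 4 alone the rise was 0.93, under the 2-fold minimum. Metallothionein genes are close relatives, and a probe of 1 of them can bind transcripts of another, so values of single members are uncertain.

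The promoters of MT1H, which fell, and MT2A, which rose, are set side by side because they share the same kind of element. Capitals mark the core of the metal response element, TGCACNC or TGCGCNC on either strand, in the 250 bases upstream of the transcript start (RefSeq, GRCh38.p14).
MT1H, chr16:56669564-56669813, plus strand: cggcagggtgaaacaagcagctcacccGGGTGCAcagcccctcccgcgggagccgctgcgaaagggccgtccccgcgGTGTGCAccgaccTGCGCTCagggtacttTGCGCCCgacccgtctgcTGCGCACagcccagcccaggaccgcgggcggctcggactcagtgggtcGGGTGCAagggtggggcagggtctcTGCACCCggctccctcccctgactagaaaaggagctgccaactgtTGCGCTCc
MT2A, chr16:56608334-56608583, plus strand: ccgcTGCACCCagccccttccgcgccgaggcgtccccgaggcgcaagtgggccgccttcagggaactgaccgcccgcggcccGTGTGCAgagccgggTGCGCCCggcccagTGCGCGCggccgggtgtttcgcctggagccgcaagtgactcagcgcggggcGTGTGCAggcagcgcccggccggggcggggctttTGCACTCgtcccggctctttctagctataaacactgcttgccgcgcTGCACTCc
The stretch of MT1H holds 8 matches and that of MT2A holds 7, while that of MT1X, which also fell, holds 4. In the same window, 24.7% of 27305 RefSeq promoters hold at least 1 match and 1.56% hold 3 or more.

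Small structured RNAs fell without a called rise. Small nucleolar RNAs (snoRNAs) guide the chemical modification of ribosomal and spliceosomal RNA, those named SNORD directing methylation and those named SNORA directing pseudouridine formation. Most are cut from introns of host genes. Of 37 tested snoRNAs (by RefSeq gene type) 26 fell, 0 rose and 11 were not called, with a median difference of -1.34, beside 3.07% lower over all genes. All 26 that fell are SNORD RNAs, and none of the 7 tested SNORA RNAs was called. The means of the 7 were also lower in 1-week EBs, by differences from -0.92 (SNORA33) to -0.24 (SNORA32), under the 2-fold minimum. SNORA10 and SNORA70 missed the adjusted p threshold as well (limma adjusted p = 0.0878 and 0.231). SNORA70 had 9.15, 9.09, 8.25 and 8.21 in 1-week EBs, against 8.82, 8.96, 9.06 and 9.03 in ESCs. Its first 1-week pair thus lay above all ESC arrays and its second below them. Without background correction 17 fell, and with median scaling 20 fell.

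SNORD46 had 6.72, 6.68, 6.65 and 6.46 in 1-week EBs, below the limit of detection, against 9.03, 9.09, 9.19 and 9.24 in ESCs, and fell at least 4.99-fold. SNORD35A had 6.10, 5.71, 5.68 and 6.02 in 1-week EBs, also undetected, against 8.37, 8.72, 8.85 and 8.88 in ESCs, and fell at least 3.71-fold. SNORD21 had 7.02, 7.05, 6.38 and 6.53 in 1-week EBs, against 8.79, 8.81, 9.39 and 9.45 in ESCs, but it was detected on 2 of 4 1-week arrays, so the size of its fall is uncertain. The groups were separate for all of them. Over the list of 41 genes named as small nucleolar or Cajal body RNAs or their hosts, the mean level was 7.86, 7.85, 7.48 and 7.52 in 1-week EBs, against 8.76, 8.80, 8.94 and 8.94 in ESCs.

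The genes that contain these snoRNAs did not fall with them. By position in the RefSeq gene table, 23 tested snoRNAs lie within 15 tested host genes, most of them ribosomal protein genes. None of the 15 hosts was called, and their differences ran from -0.49 to 0.27, with a median of 0.04, against a median of -1.52 for the 23 snoRNAs. The hosts RPS2, RPS12, RPS3, RPL3, RPL12 and RPS13 averaged 15.01 to 15.78 in 1-week EBs, near the top of the scale, and whether differences are still resolved there was not tested. In 22 of the 23 cases the snoRNA had the lower difference. SNORD35A differed by -2.83 and its host RPL13A by -0.35, and SNORD21 by -2.36 and its host RPL5 by 0.05. Whether the probes read the mature snoRNA or a longer precursor was not tested.

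**Figure D3:**
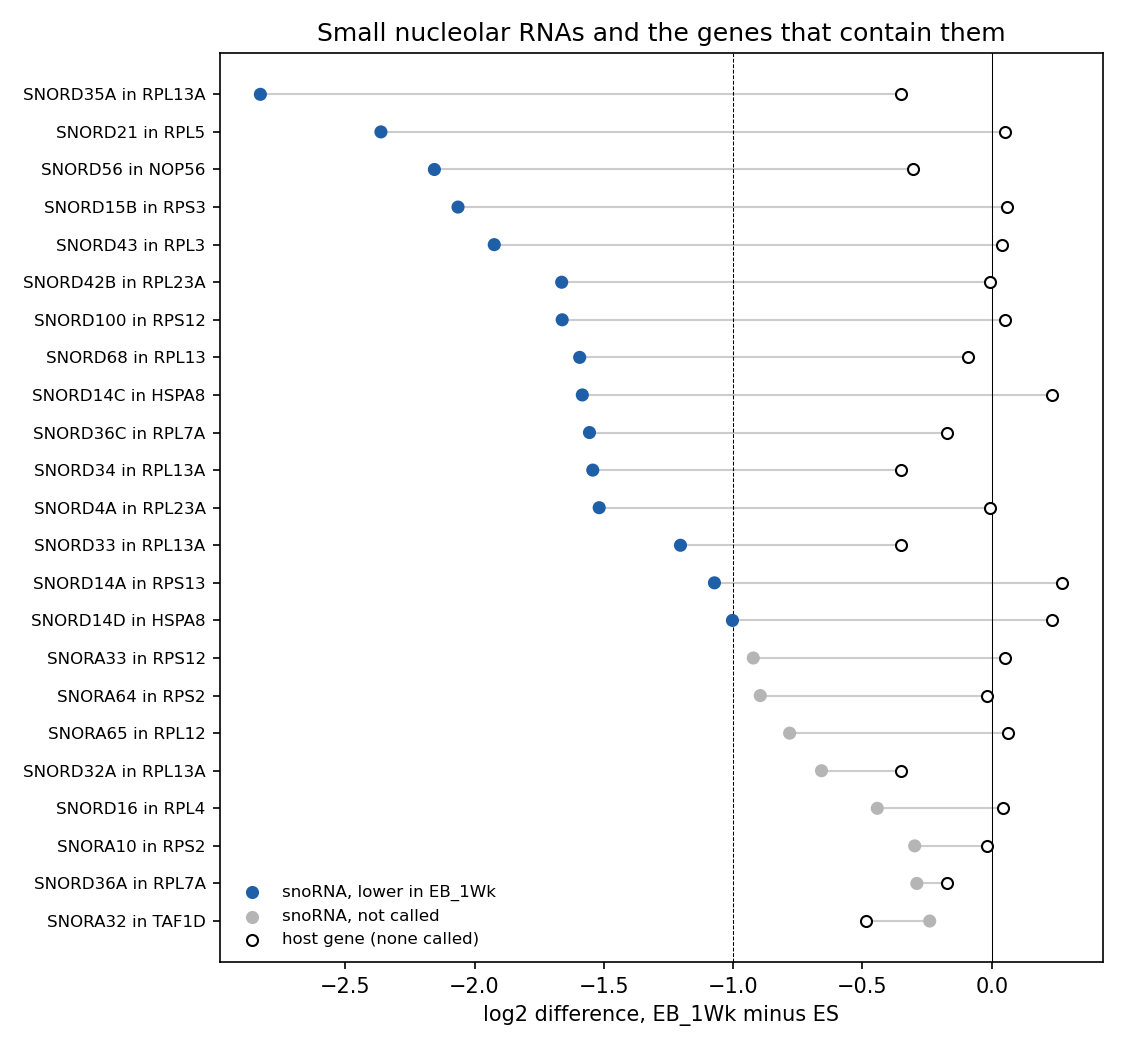
Each line joins a snoRNA (filled circle, blue where lower, grey where not called) to the gene that contains it (open circle), with the difference, 1-week EBs minus ESCs (log2), on the x axis. The 15 hosts lie between -0.49 and 0.27, while the snoRNAs reach -2.83 for SNORD35A.

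Some small RNAs with other roles fell as well. RNU11, a component of the minor spliceosome, had 6.88, 7.02, 7.07 and 6.86 in 1-week EBs, against 9.37, 9.51, 9.23 and 9.40 in ESCs, a fall of 5.34-fold (log2 difference -2.42, SE 0.08, limma adjusted p = 1.13e-11). RN7SK, which holds the elongation factor P-TEFb inactive, had 10.30, 10.31, 10.71 and 10.61 in 1-week EBs, against 11.72, 11.81, 12.03 and 12.12 in ESCs, a difference of -1.44. RPPH1, the RNA of ribonuclease P, and RNU6ATAC, another minor spliceosome RNA, differed by -1.51 and -1.30, and both were called. RN7SL1, the RNA of the signal recognition particle, differed by 0.03, SNAR-A1 by 0.20 and TERC, the telomerase RNA, by -0.15, and none of these was called. The choice to name RN7SK, RPPH1, RNU6ATAC and the uncalled RNAs followed a look at their values. In all, 30 of 45 tested small structured RNAs fell and 0 rose.

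Replication-dependent histone genes, which lie in clusters and whose mRNAs end in a stem loop without a poly(A) tail, held falls and no called rise. Of 35 tested genes with such names, 30 of them on chromosome 6, 19 fell, beside 3.07% over all genes. Of the rest, 0 rose and 16 were not called (median of the 35 genes -1.08). Their mean level was 7.75, 7.75, 7.87 and 7.91 in 1-week EBs, against 8.93, 8.94, 8.90 and 8.93 in ESCs. H2BC8 had 7.22, 7.31, 7.51 and 7.48 in 1-week EBs, against 9.66, 9.59, 9.45 and 9.61 in ESCs, and fell 4.59-fold. H4C2 and H2BC7 were undetected in 1-week EBs and fell at least 4.03-fold and at least 2.24-fold. With the series matrix values or without background correction 10 fell. Members of these clusters are near-identical in sequence, so single genes are uncertain. H4C3, named after its values were seen, averaged 15.78 in 1-week EBs and 15.83 in ESCs and was not called.

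The histones outside those clusters did the opposite where they were called. Of 11 tested, 0 fell and 2 rose. MACROH2A1, the macroH2A variant found on silent chromatin, had 13.53, 13.49, 13.47 and 13.50 in 1-week EBs, against 11.27, 11.40, 11.11 and 11.01 in ESCs, and rose 4.93-fold (log2 difference 2.30, SE 0.08, limma adjusted p = 2.33e-11), its other probes giving 2.02 to 2.15. MACROH2A2, its paralogue, had 13.05, 13.02, 13.01 and 13.04 in 1-week EBs, against 11.61, 11.51, 11.51 and 11.57 in ESCs, and rose 2.79-fold. The arrays of each group were close together and the groups far apart for both.

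Transcripts of the dividing cell held almost no calls. None of 63 tested mitosis genes was called (differences from -0.40 to 0.56), and of 48 DNA replication genes only GINS4, a subunit of the replicative helicase complex, fell, by 1.02 on the log2 scale and by 0.88 with median scaling, where it is not called. The GINS4 log2 difference was -0.995 without the fourth ESC array, also under the 2-fold minimum. CDC20, an activator of the anaphase-promoting complex, had 13.56, 13.61, 13.58 and 13.56 in 1-week EBs, against 13.53, 13.63, 13.47 and 13.38 in ESCs. Its groups overlapped (log2 difference 0.08, SE 0.08, limma adjusted p = 0.449). Among 35 genes of G1 control 4 rose and 0 fell, led by GAS1, a membrane protein linked to growth arrest, at 3.17-fold, which is not called with the series matrix values, and CDK6, a kinase of the G1 phase, at 2.60-fold. CDK6 had 11.19, 11.09, 11.06 and 11.08 in 1-week EBs, against 9.84, 9.74, 9.64 and 9.66 in ESCs.

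**Figure D4:**
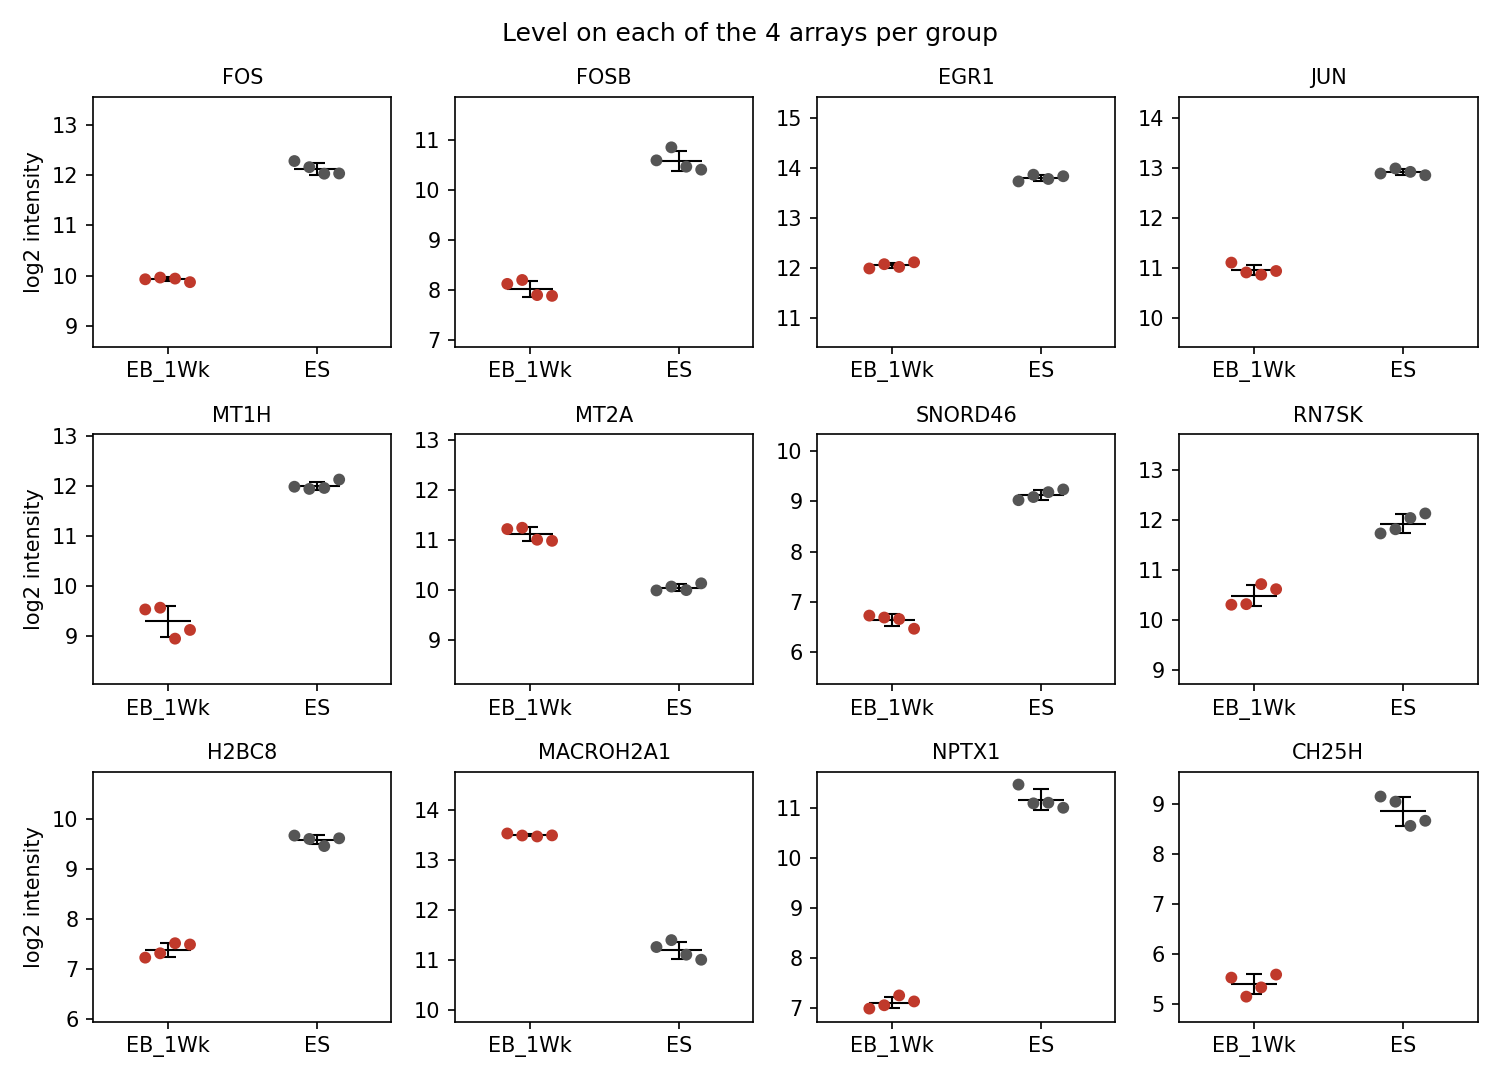
Points are the 4 arrays of 1-week EBs (red) and of ESCs (grey) for 12 genes, as log2 normalized intensity, with the mean and SD as bars; each panel spans the same height on the log2 scale. MT2A and MACROH2A1 are higher in 1-week EBs, the other 10 genes are lower, and the groups overlap in no panel.

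Housekeeping machinery held almost no calls at this threshold. No member was called among 71 cytosolic ribosomal protein genes (differences from -0.46 to 0.72), 76 mitochondrial ribosomal protein genes (-0.70 to 0.33), 39 proteasome genes, 78 splicing factor and hnRNP genes, 47 genes of nucleolus and ribosome assembly, 34 aminoacyl-tRNA synthetase genes or 12 telomere genes. At the adjusted p alone, 27.1% of all genes were higher and 24.8% lower, so a lack of calls here refers to 2-fold changes. The cytosolic ribosomal protein list averaged 14.28 to 14.30 on 1-week arrays and 14.22 to 14.31 on ESC arrays, toward the top of the scale. Whether differences are still resolved there was not tested. Of 67 respiratory chain genes 1 was called, COX6B2, a testis form of a cytochrome oxidase subunit, undetected in 1-week EBs and at least 1.53-fold lower, a call that is lost with the series matrix values and without background correction. Of 33 genes of glycolysis and glucose transport 2 rose and 1 fell. ALDOC, an aldolase of brain, fell 2.16-fold. PFKFB3, which makes an activator of glycolysis, differed by 1.05, or by 0.93 without either the third or the fourth ESC array, where it is not called. PDK4, a kinase that inhibits pyruvate dehydrogenase, was called higher but undetected on all arrays of both groups, and its probe was kept through 2-week arrays.

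**Figure D5:**
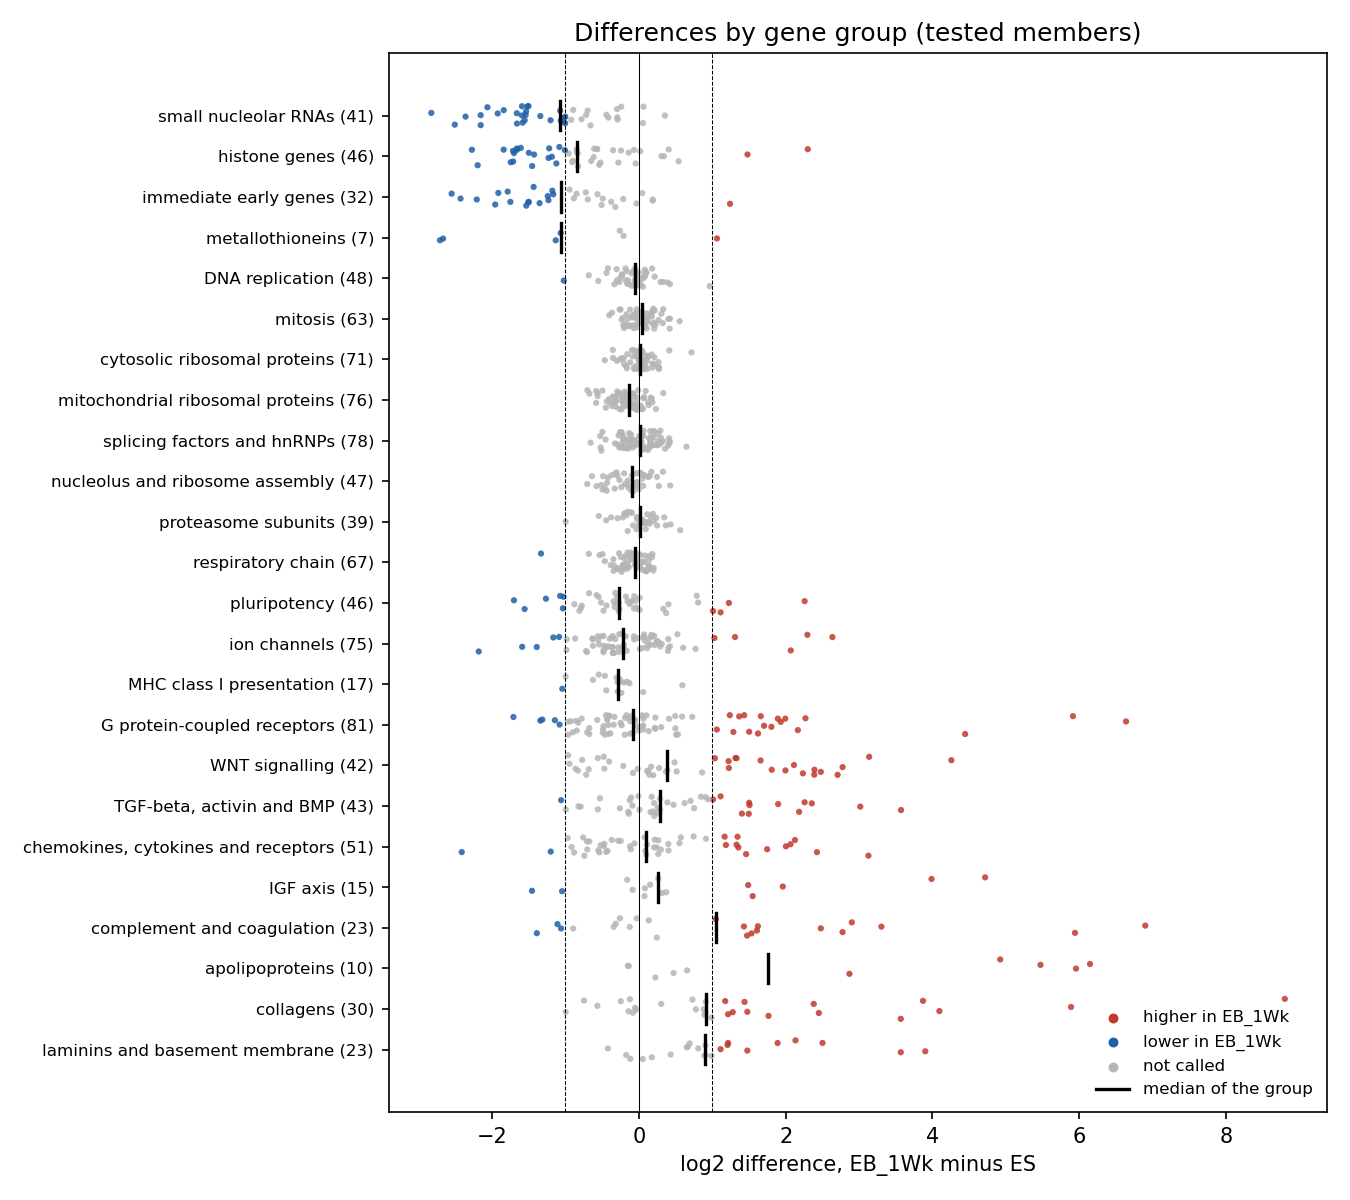
Each point is a tested gene of a functional group (number tested in brackets), with its difference, 1-week EBs minus ESCs (log2), on the x axis; red points rose, blue points fell, grey points were not called and black bars are medians. The snoRNA, histone, immediate early and metallothionein groups lie to the left and the signalling, plasma protein and matrix groups reach far to the right, while the ribosomal and mitosis groups lie near 0.

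The WNT signalling list held 17 rises and no called fall. WNT ligands act on FZD receptors and, through beta-catenin and LEF or TCF factors, on target genes, and RSPO proteins strengthen the signal while DKK and SFRP proteins dampen it. Of 42 tested genes 17 rose, 0 fell and 25 were not called, beside 6.09% higher over all genes, with a median of 0.38, or 0.37 with bounds. Among the 17 rises, 8 were undetected on every ESC array, so that the filter kept them through EB arrays alone. RSPO2 had 10.43, 10.29, 10.11 and 10.24 in 1-week EBs, was undetected in ESCs and rose at least 9.06-fold, its other probe differing by 2.30. LEF1, the nuclear effector, rose 8.80-fold, and DKK1, the inhibitor, had 10.01, 9.88, 9.76 and 9.99 in 1-week EBs, against 7.17, 7.31, 7.17 and 6.88 in ESCs, a rise of 6.85-fold. Ligand-side activators and inhibitors were both among the 17.

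In the TGF-beta, activin and BMP list 12 of 43 genes rose and 1 fell, beside 6.09% and 3.07% over all genes. Probes of 4 of the 12 were undetected on every ESC array and kept through EB arrays alone. LTBP3, which stores latent TGF-beta, was the member that fell. That fall, of 1.06 on the log2 scale, was 0.97 without either of the first 2 ESC arrays, where it is not called. CER1, which blocks NODAL and BMP ligands outside the cell, rose at least 3.38-fold, BMP5 at least 2.23-fold, and TGFBR3, the coreceptor betaglycan, 5.12-fold. TGFBR3 had 11.93, 11.99, 11.99 and 12.07 in 1-week EBs, against 9.19, 9.19, 10.06 and 10.11 in ESCs, so the size of its rise varied with the ESC pair. NODAL, the ligand that ESCs use to hold their state, had 8.91, 9.06, 9.01 and 8.99 in 1-week EBs and was undetected in ESCs, a rise of at least 3.74-fold.

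With bFGF withdrawn, members of the FGF list moved in both directions. Of 37 tested genes 4 rose and 5 fell, beside 6.09% higher and 3.07% lower over all genes. FGF19, a hormone-like ligand, had 9.77, 9.90, 9.78 and 9.81 in 1-week EBs, against 7.80, 7.61, 7.61 and 7.43 in ESCs, a rise of 4.61-fold. FGF11, a member that stays inside the cell, had 9.18, 9.19, 8.88 and 9.04 in 1-week EBs, against 10.44, 10.42, 10.58 and 10.51 in ESCs, a fall of 2.67-fold. FGFR1, a main FGF receptor, fell 2.29-fold, with ESC arrays at 9.77 and 9.61 in the first pair and 10.35 and 10.37 in the second, above all 1-week arrays (8.55 to 8.997). Of the called MAP kinase phosphatases in the list DUSP6 rose 2.497-fold, whereas DUSP8 fell 2.58-fold and DUSP1 and DUSP2 fell as described above.

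In the insulin-like growth factor axis different members moved in opposite directions. Of 15 tested genes 5 rose and 2 fell, beside 6.09% and 3.07% over all genes. Probes of 3 of the 5 were undetected on every ESC array and kept through EB arrays alone. IGF2, the growth factor, had 9.996, 10.19, 9.93 and 9.96 in 1-week EBs, was undetected in ESCs and rose at least 7.63-fold. IGFBP3, which carries IGF in the circulation, had 13.21, 13.18, 12.95 and 12.96 in 1-week EBs, against 9.10, 9.17, 9.11 and 8.96 in ESCs, and rose 15.9-fold. IGFBP6, which prefers IGF2, had 8.66, 8.78, 8.46 and 8.65 in 1-week EBs, against 10.14, 10.14, 10.03 and 10.07 in ESCs, and fell 2.74-fold. IGFBP2 fell by 1.05 on the log2 scale, or by 0.99 without the second ESC array, where the call is lost.

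Receptors for hormones and other small signals held both rises and falls. The G protein-coupled receptor list, matched by symbol, also takes in RGS regulators and the reductase PTGR3. Of its 81 tested genes 18 rose and 5 fell, or 11 and 1 without background correction, beside 6.09% and 3.07% over all genes. Among the 18 rises, 12 were undetected on every ESC array, so that the filter kept them through EB arrays alone. RGS13, a regulator known from B cells, had 9.64, 9.51, 9.50 and 9.66 in 1-week EBs, was undetected in ESCs and rose at least 5.63-fold. DRD4, a dopamine receptor, had 10.45, 10.58, 10.56 and 10.52 in 1-week EBs, against 12.35, 12.19, 12.22 and 12.19 in ESCs, and fell 3.27-fold (log2 difference -1.71, SE 0.07, limma adjusted p = 1.27e-10). The other 4 that fell, CHRM3, S1PR5, P2RY11 and VIPR2, lost the call without background correction, and CHRM3 was detected on 2 of 4 1-week arrays.

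Of 23 secreted peptide genes 7 rose and 2 fell, beside 6.09% and 3.07% over all genes. Among the 7 rises, 5 were undetected on every ESC array, so that the filter kept them through EB arrays alone. SST, the inhibitory hormone somatostatin, had 9.96, 10.11, 9.95 and 9.87 in 1-week EBs, was undetected in ESCs and rose at least 7.37-fold. NPY, an appetite peptide, had 10.13, 10.21, 10.18 and 10.24 in 1-week EBs, against 8.21, 8.13, 8.06 and 8.07 in ESCs, and rose 4.20-fold. GRP, the gastrin-releasing peptide, rose at least 2.46-fold. VGF, a granin-like precursor of secretory vesicles, had 9.87, 10.003, 9.66 and 9.74 in 1-week EBs, against 11.62, 11.51, 11.61 and 11.57 in ESCs, and fell 3.38-fold. NPTX1 was the other member that fell.

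Among 51 chemokines, cytokines and their receptors 12 rose and 2 fell, or 7 rose without background correction, beside 6.09% and 3.07% over all genes. Probes of 4 of the 12 were undetected on every ESC array and kept through EB arrays alone. IL6ST, the receptor chain gp130 shared by the interleukin 6 family, had 11.10, 11.04, 10.63 and 10.58 in 1-week EBs, against 7.74, 7.89, 7.55 and 7.67 in ESCs, and rose 8.74-fold by its brightest probe, its other kept probe differing by 1.71 on the log2 scale. CXCR4, the receptor of CXCL12, was called higher (log2 difference 2.43, its other kept probe 1.86), but it was detected on 2 of 4 ESC arrays, so the size of its rise is uncertain. VEGFC, a growth factor of lymph vessels, rose at least 2.17-fold. CCL26, described above, and IL11, a cytokine of the gp130 family, were the members that fell. IL11 was undetected in 1-week EBs and fell at least 1.43-fold. Its fitted log2 difference of -1.20 was -0.66 without background correction, where it is not called.

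Of 75 tested ion channel genes 5 rose and 5 fell, beside 6.09% higher and 3.07% lower over all genes. KCNA1, a voltage-gated potassium channel, was undetected in 1-week EBs and had 7.49, 7.77, 7.98 and 7.88 in ESCs, a fall of at least 1.95-fold. SCNN1G, a subunit of the epithelial sodium channel, had 8.47, 8.37, 7.95 and 7.92 in 1-week EBs, against 9.84, 9.75, 9.75 and 9.73 in ESCs, and fell 3.01-fold. GABRP, a subunit of the GABA-A receptor, rose at least 2.75-fold, KCNIP1, a partner of potassium channels, at least 1.37-fold and TRPV2, a cation channel, at least 1.67-fold. Falls of ion channels numbered 2 without background correction and 10 without the filter on dim probes.

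Of 52 axon guidance genes 7 rose and 1 fell, beside 6.09% higher and 3.07% lower over all genes. The filter kept 4 of the 7 through EB arrays alone, as they were undetected on every ESC array. SLIT2, a secreted repellent, had 11.10, 11.12, 10.87 and 10.72 in 1-week EBs, against 7.77, 7.75, 8.41 and 8.50 in ESCs, and rose 7.18-fold. SLIT3 and SEMA3C, also secreted guidance cues, rose at least 1.69-fold each, the other kept probe of SLIT3 differing by 1.43 on the log2 scale. UNC5A, a netrin receptor, fell by 1.12 on the log2 scale, or by 0.97 with median scaling, where it is not called.

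Genes of the extracellular matrix accounted for many of the largest rises. Of 30 tested collagen genes 13 rose and 0 fell (median 0.91, or 0.90 with bounds), beside 6.09% and 3.07% over all genes. The filter kept 5 of the 13 through EB arrays alone, as they were undetected on every ESC array. COL5A2, a chain of fibrillar collagen V, had 12.37, 12.48, 12.08 and 12.04 in 1-week EBs, against 8.27, 8.31, 7.95 and 8.06 in ESCs, and rose 17.1-fold. COL5A1, its partner chain, rose 14.6-fold, and COL6A3, a chain of the beaded filament collagen VI, at least 30.0-fold. The mean level of the collagen list was 9.70, 9.70, 9.37 and 9.31 in 1-week EBs, against 8.15, 8.06, 8.09 and 8.07 in ESCs, so that the second pair of 1-week arrays held less, still above all ESC arrays.

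Of 23 laminin and basement membrane genes 9 rose and 0 fell, and 4 of the 9 were undetected on every ESC array and kept through EB arrays alone. They were led by NID2, nidogen 2, which had 10.66, 10.67, 10.58 and 10.80 in 1-week EBs, was undetected in ESCs and rose at least 12.1-fold. Of 36 proteoglycan and hyaluronan genes 11 rose and 2 fell, beside 6.09% and 3.07% over all genes. Among the 11 rises, 7 were undetected on every ESC array, so that the filter kept them through EB arrays alone. HAPLN3, a link protein like HAPLN1, had 7.34, 7.38, 7.23 and 6.94 in 1-week EBs, against 8.94, 8.82, 8.71 and 8.77 in ESCs, and fell 3.01-fold. BCAN, a brain proteoglycan, was undetected in 1-week EBs and fell at least 2.03-fold, a call that is lost without background correction (log2 difference -0.95).

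Enzymes that finish collagen held fewer calls than the collagen genes. Of 27 genes of collagen folding and crosslinking 3 rose, all lysyl oxidases, and 1 fell, beside 6.09% and 3.07% over all genes. Their median difference was 0.17, and 19 of the 27 lay above 0. LOX, the crosslinking enzyme itself, had 9.30, 9.34, 9.15 and 9.22 in 1-week EBs, against 7.92, 8.03, 7.49 and 7.45 in ESCs, and rose 2.89-fold. LOXL1 and LOXL4 rose at least 2.10-fold and at least 1.501-fold, calls that are lost without background correction. P3H2, a prolyl hydroxylase that acts on basement membrane collagen, had 11.70, 11.75, 11.46 and 11.41 in 1-week EBs, against 12.999, 13.15, 13.04 and 13.03 in ESCs, and fell 2.78-fold.

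Of 47 cadherin and desmosome genes 10 rose and 1, CTNND1, fell, beside 6.09% higher and 3.07% lower over all genes. The filter kept 3 of the 10 through EB arrays alone, as they were undetected on every ESC array. CDH11, a cadherin of mesenchyme, had 11.81, 11.87, 11.67 and 11.72 in 1-week EBs, against 8.98, 9.13, 8.76 and 8.80 in ESCs, and rose 7.21-fold. CDH10 and DSC3, a cadherin of brain and a desmosomal cadherin, rose at least 3.58-fold and at least 3.54-fold. Among 30 tight and gap junction genes 2 rose and 1 fell, with a median of -0.28, and of 11 integrins ITGA8 rose at least 1.17-fold. Of 8 keratin genes 4 rose, and KRT19, a keratin of simple epithelia, had 13.77, 13.69, 13.92 and 13.94 in 1-week EBs, against 12.46, 12.49, 12.56 and 12.51 in ESCs, a rise of 2.51-fold. KRT8 rose 2.14-fold, whereas KRT18 rose 2.40-fold by its brightest probe and its other probes gave -0.47 to 0.15.

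The actin and myosin list had 6 rises and 3 falls among 52 genes, beside 6.09% and 3.07% over all genes. MYL4, the atrial and embryonic myosin light chain, rose at least 14.1-fold by its brightest probe, its other kept probe differing by 2.20 on the log2 scale, and MYL7, an atrial light chain, at least 4.69-fold. TNNI3, the cardiac form of troponin I, went against them, with 8.47, 8.31, 8.85 and 8.82 in 1-week EBs, against 10.14, 10.11, 10.53 and 10.39 in ESCs, a fall of 3.20-fold. PDLIM1 and ACTN3, partners of actin at the Z disc, fell 2.39-fold and 2.35-fold. Of 18 annexin and S100 genes 5 rose and 1 fell, with S100A11, a calcium-binding protein, at 9.85, 9.87, 10.02 and 10.05 in 1-week EBs, against 7.52, 7.85, 7.75 and 7.62 in ESCs.

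Of 32 metalloprotease and cathepsin genes 9 rose and 1 fell, and of 30 serpins and other protease inhibitors 9 rose and 2 fell, beside 6.09% and 3.07% over all genes. In each list 5 of the 9 rises were undetected on every ESC array and kept through EB arrays alone. ADAMTS9, a secreted protease that cuts proteoglycans, had 10.59, 10.67, 10.55 and 10.39 in 1-week EBs, was undetected in ESCs and rose at least 11.03-fold, and ADAMTS1, its relative, rose at least 4.88-fold. CST1, a secreted inhibitor of cysteine proteases, had 10.16, 10.03, 9.55 and 9.62 in 1-week EBs and rose at least 6.74-fold, and SERPINA1, the plasma inhibitor of neutrophil elastase, at least 8.21-fold. SERPINI1, neuroserpin, had 7.76, 7.61, 7.48 and 7.53 in 1-week EBs, against 9.25, 9.36, 8.91 and 8.71 in ESCs, and fell 2.75-fold.

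Complement and coagulation genes followed the plasma proteins, with 12 of 23 higher and 3 lower (median 1.05, but 0.07 with undetected members at their bound). Among the 12 rises, 9 were undetected on every ESC array, so that the filter kept them through EB arrays alone. FGG, the fibrinogen gamma chain, rose at least 17.4-fold by its brightest probe, its other kept probe differing by 1.67 on the log2 scale, and VTN, vitronectin, at least 2.33-fold. F12, coagulation factor XII, had 8.41, 8.48, 8.37 and 8.42 in 1-week EBs, against 9.94, 9.99, 9.66 and 9.65 in ESCs, and fell 2.62-fold, whereas the falls of CFD and TFPI2 lost the call with median scaling. Of 10 apolipoprotein genes 5 rose and 0 fell, and all 5 were undetected on every ESC array and kept through EB arrays alone. APOA2, a protein of high-density lipoprotein, had 11.42, 11.35, 11.75 and 11.75 in 1-week EBs and rose at least 22.3-fold. APOA1, its main partner, rose at least 23.03-fold, and APOB, the body of low-density lipoprotein, at least 9.47-fold.

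SLC40A1, the iron exporter ferroportin, had 10.90, 10.79, 10.52 and 10.55 in 1-week EBs, was undetected in ESCs and rose at least 12.1-fold by its brightest probe, its other kept probe differing by 3.15 on the log2 scale. It was the only called gene of 14 in iron handling. Of 38 glutathione and redox genes 6 rose and 0 fell, or 3 with the series matrix values, among them GSTA2, a glutathione transferase of liver, at least 3.21-fold, and SELENOP, which carries selenium, 2.72-fold. Of 24 retinoid and aldehyde genes 4 rose, all from below background, with TTR, which carries thyroxine and retinol-binding protein, at least 23.6-fold. The 2 that fell, RBP7 and PLAAT4, lost the call with median scaling. Of 25 amino acid transporter genes 1 rose and 1 fell. SLC38A4 was undetected in 1-week EBs and fell at least 1.40-fold. Its fitted fall of 1.07 on the log2 scale was 0.99 without the second ESC array, where it is not called. SLC1A3, a glutamate transporter, had 9.06, 8.95, 8.95 and 8.79 in 1-week EBs, against 7.49, 7.44, 7.41 and 7.73 in ESCs, and rose 2.68-fold. LIPG, endothelial lipase, had 10.28, 10.19, 9.99 and 10.05 in 1-week EBs, against 8.54, 8.71, 8.60 and 8.45 in ESCs, and rose 2.93-fold.

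Of 65 tested glycosyltransferase genes of the cell surface 5 rose and 3 fell, shares near the 6.09% and 3.07% over all genes. ST3GAL1, which caps O-linked sugars with sialic acid, had 9.65, 9.78, 9.85 and 9.83 in 1-week EBs, against 7.79, 7.54, 8.29 and 8.46 in ESCs, and rose 3.37-fold. GALNT10, which starts O-linked chains, rose 2.996-fold, while GALNT18, a relative, had 7.47, 7.38, 7.44 and 7.11 in 1-week EBs, against 9.12, 9.20, 9.09 and 9.14 in ESCs, and fell 3.45-fold. GALNT9 was undetected in 1-week EBs and fell at least 2.81-fold.

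The lists of RNA and chromatin regulators held single calls in either direction. Of 41 RNA-binding and splicing regulators 3 rose and 1, ZFP36, fell, shares near the 6.09% and 3.07% over all genes. MBNL2, a muscleblind protein that sets splicing patterns of differentiated tissues, had 9.76, 9.69, 9.43 and 9.45 in 1-week EBs, against 7.14, 7.201, 7.06 and 7.10 in ESCs, and rose 5.49-fold (log2 difference 2.46, SE 0.11, limma adjusted p = 3.31e-10). MBNL3 had 8.73, 8.77, 8.80 and 8.91 in 1-week EBs, was undetected in ESCs and rose at least 3.28-fold by its brightest probe, its other kept probe differing by 1.24 on the log2 scale. Of 75 chromatin regulators 2 rose and 1 fell, beside the same 6.09% and 3.07%. ARID5B, a DNA-binding cofactor, had 9.37, 9.41, 9.28 and 9.39 in 1-week EBs and rose at least 4.83-fold. BMI1 and CBX7, proteins of the Polycomb repressive complex, differed by 1.06 and -1.25, and both lose the call without background correction (0.97 and -0.96). Among 16 DNA methylation enzymes and partners only GADD45B was called.

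Calls in stress responses other than the immediate early one are set beside 6.09% higher and 3.07% lower over all genes. Of 34 genes of the ATF4 and unfolded protein response 2 rose and 0 fell. Their median difference was 0.27, and 24 of the 34 lay above 0. ATF5, a relative of ATF4, had 11.03, 11.07, 11.06 and 10.91 in 1-week EBs, against 9.64, 9.74, 9.59 and 9.66 in ESCs, and rose 2.56-fold. Of 72 heat shock genes 1 rose and 3 fell, beside 6.09% and 3.07% over all genes. HSPA2, a chaperone abundant in testis, led the falls, with 11.12, 10.99, 10.86 and 10.93 in 1-week EBs, against 12.94, 12.94, 12.88 and 12.95 in ESCs, a fall of 3.86-fold. Of 22 interferon-induced genes 1 rose and 1 fell, and the median difference was -0.38, with 4 of the 22 above 0. IFI16, a DNA sensor, rose at least 2.73-fold. TRIM22, detected on 1 of 4 1-week arrays, fell by 1.05 on the log2 scale. That fall was 0.99 without the first 1-week array, where the call is lost.

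Of 48 tested cilia genes 2 rose, DNAH2 and GAS1, and 2 fell, CFAP77 and BBS9, beside 6.09% and 3.07% over all genes. DNAH2, an inner dynein arm heavy chain, had 9.88, 9.81, 9.83 and 9.76 in 1-week EBs, was undetected in ESCs and rose at least 6.64-fold. CFAP77 was undetected in 1-week EBs and differed by -1.37, a call that is lost without background correction. BBS9, a subunit of the BBSome, differed by -1.20, and its other kept probe by -0.73. Among 22 imprinted genes 6 rose and 1 fell, and 4 of the 6 were undetected on every ESC array and kept through EB arrays alone. DLK1, a ligand-like membrane protein, had 12.26, 12.28, 12.23 and 12.20 in 1-week EBs, against 10.24, 10.21, 9.96 and 10.05 in ESCs, a rise of 4.37-fold. Of 317 ZNF genes 10 rose and 8 fell, or 16 and 1 with median scaling, beside 6.09% and 3.07% over all genes. ZNF503 rose 7.17-fold, with 9.93, 9.93, 10.35 and 10.45 in 1-week EBs, against 7.15, 7.29, 7.33 and 7.53 in ESCs.

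Lineage markers were used to describe which derivatives the 1-week EBs held, and members undetected in ESCs were again kept only through EB arrays. All 17 tested liver and yolk sac markers rose, beside 6.09% over all genes. So did 11 of 15 mesenchyme and fibroblast, 7 of 12 cardiomyocyte, 6 of 11 endothelial, 7 of 15 epithelial and trophoblast, 9 of 22 neural and 4 of 7 erythroid markers. In the same order 15, 6, 5, 4, 3, 6 and 4 of these rises were undetected on every ESC array. For those markers a higher level in EBs was largely fixed in advance. With undetected members at their bound, the list medians were 3.06, 2.45, 0.56, 0.19, 0.29, 0.04 and 0.87. Falls among them were TNNI3 and GAP43, a growth cone protein, which fell 2.65-fold. Some markers differed between the array pairs. The mean level of the erythroid list was 7.88, 7.88, 8.76 and 8.76 in 1-week EBs, against 6.67, 6.54, 6.65 and 6.64 in ESCs, and HBG2, a fetal globin chain, had 8.66, 8.66, 10.15 and 10.28 in 1-week EBs and rose at least 5.10-fold. The neural list averaged 8.66, 8.66, 9.07 and 9.04 in 1-week EBs, against 8.08, 8.04, 8.12 and 8.13 in ESCs, and HES5, a NOTCH target of neural progenitors, had 8.54, 8.30, 9.89 and 9.87 in 1-week EBs. The part of these pair differences in the results above was not tested beyond the values given for each pair.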

How the data were processed

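RNA of 12 arrays was labelled with Cy3 and hybridised to Illumina HumanWG-6 v3 arrays, per the labels' protocols. Per the file headers, the deposited probe table holds, for every array, each probe's intensity and detection p-value, and the authors' deposited series matrix gives log2 values whose normalization is not given in the sources used here. In R 4.3.3 with limma 3.58.1, intensities were background-corrected and quantile-normalized with neqc (offset 16, background inferred from detection p-values) and put on a log2 scale. Probes with a detection p under 0.01 on at least 4 of 12 arrays were kept (15921), 13586 of them with 1 gene symbol, and each gene was read by its brightest probe. lmFit and eBayes were run on all 12 arrays, and p-values were Benjamini-Hochberg adjusted over 10562 genes. The step was tested on simulated data.

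Members and lists were chosen with earlier results of these data known. Genes to be named, 242 in all, were POU5F1, NANOG and SOX2, the 10 largest measured rises and falls, the 10 rises and 5 falls with the largest bounds, and per list the 3 called members with the largest difference each way, or all where 5 or fewer were called. The text describes part of them. A bound sets the brighter group's mean against the lowest detected signal of each array in the dimmer group, or the probe's own signal where that is higher. Same-numbered arrays of the 2 groups deviated together from their group means (correlations 0.14, 0.23, 0.24 and 0.14). Differently numbered arrays of the same pair did so as well (0.12 to 0.25), and arrays of different pairs did not (-0.26 to -0.08). The pattern therefore follows the array pairs and not the array number. It comes from the data, as the labels state no shared batch. Alternatives covered scaling, background, filter, probe choice, arrays left out and blocking. The number of arrays limits the precision.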

Additional observations from a re-analysis of the deposited data

Results flagged for a closer look

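In 12 of 377 groups of 4 arrays examined (3.18%), 1 array stood apart from the other three by Dixon's test, and chance gives about 1 in 20. In 1-week EBs these were CREB5 at 7.31 on array 3, CBX7 at 7.91 on array 2, TTR at 11.57 on array 1, RBP7 at 7.19 on array 3, CLDN19 at 6.54 on array 1 and KLF2 at 9.03 on array 2. In ESCs they were NANOG at 11.18 on array 1, ACTC1 at 10.34 on array 4, ZNF775 at 10.71 on array 2, P2RY11 at 8.63 on array 2, HSPA2 at 12.88 on array 3 and FARSB at 15.75 on array 1. All values are log2 normalized intensities.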

How the results depend on the processing

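The 643 rises became 2866 with no fold minimum, and the 324 falls became 2620, so that 52.2% of calls were rises. Falls numbered 163 without background correction and 183 with the authors' deposited series matrix values, and 223 with median scaling, where 78.1% of calls were rises. Leaving out 1 array gave 631 to 660 rises and 313 to 367 falls. The replicate block gave 643 and 324, and it changed no call of the 242 named genes. Arrays 1 and 2 alone, or 3 and 4 alone, a choice made after seeing the data, gave 663 and 709 rises and 316 and 427 falls. Of the named genes 22 lost the call with median scaling, 51 without background correction and 42 with the series matrix values. Among the named genes, signs turned only for genes that were not called. POU5F1 was 0.052 from arrays 1 and 2. The NANOG log2 difference was 0.043 with median scaling and 0.023 from arrays 3 and 4, and -0.14 to 0.00309 when 1 array was left out. RPS25 was -0.24 with median scaling, -0.26 with the series matrix values and -0.048 from arrays 1 and 2, and -0.010 to 0.037 when 1 array was left out. The HNRNPD log2 difference was -0.0785 with median scaling, and NPM1 was 0.021 from arrays 1 and 2. The cause of these changes was not tested. Signal over background limits the dim genes, whose folds are bounds.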

Other observations

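Calls were unevenly spread over chromosomes. On chromosome 19, 10 of 752 tested genes rose (1.33%) and 56 fell (7.45%), with a median difference of -0.21. Without background correction 4 rose and 21 fell there, and with median scaling 13 rose and 41 fell. On chromosome 4, 45 of 380 rose (11.8%) and 5 fell (1.32%). On chromosome 16, 12 of 479 rose (2.51%) and 26 fell (5.43%).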
